A study of Mus musculus with 14 samples.

Results

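Amino acid transporters of the mouse blastocyst were followed in cloned embryos and in embryos made by in vitro fertilization (IVF). The group comprised 10 genes, *Slc3a2*, *Slc7a5*, *Slc7a6*, *Slc7a7*, *Slc7a11*, *Slc7a3*, *Slc1a5*, *Slc38a1*, *Slc38a2* and *Slc6a14*. They were picked by name, as transporters tied to mTOR signalling and to trophoblast outgrowth, with earlier results of these data known. Every gene had at least 1 probe on the array. They were covered by 25 of the 41174 gene probes, and the genes were 10 of 19505 that could be named.

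Transporters of this kind carry leucine, arginine, glutamine, cystine and other amino acids through the plasma membrane. Several of them are pairs of proteins, in which the heavy chain encoded by *Slc3a2* brings a light chain of the Slc7 family to the cell surface and the light chain does the transport. Leucine and arginine inside the cell act on mTOR complex 1, a kinase that promotes protein synthesis and growth. In the blastocyst, uptake of these amino acids by the trophectoderm is known to be needed before trophoblast cells can spread out of the embryo and invade the uterus.

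Total RNA of 14 samples of E4.0 blastocysts was measured on 1-color Agilent arrays. Of these, 8 came from clones whose donor nuclei were cumulus cells, brought into the oocyte by cell fusion in 4 (fusion clones) and by nuclear injection in the other 4 (injection clones). The remaining samples were IVF-derived embryos, 3 of them male and 3 female. All clones were female, so the female IVF-derived embryos were their control, and both clone groups were set against the same 3 control arrays. The study compared the routes of nuclear transfer with each other and with fertilized controls.

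Recipient oocytes came from BDF1 females, the F1 hybrid of C57BL/6N and DBA/2, and the IVF-derived embryos were BDF1. The methods describe donor mice heterozygous for an *Xist* knockout on a BDF1 background, a statement made for the later, postimplantation clones and not separately for these blastocysts. All embryos were cultured in KSOM medium, and only those that reached the blastocyst stage were used. The number of embryos in a sample is not stated, and p-values measure the spread between these samples.

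Values below are log2 intensities after quantile normalization, with a floor of 4 (an intensity of 16). They compare samples for 1 probe and do not rank genes against each other. A gene is given by its brightest probe. Between 57.4% and 65.2% of the gene spots of an array were well above background, and the 9 transporters other than *Slc7a11* were so on all 14 arrays. Each group lay on a slide of its own. The clone and IVF arrays were also read by different versions of the scanner software. A difference between clones and IVF-derived embryos therefore cannot be told apart from slide, scan or software. Levels in a whole embryo also cannot tell fewer cells of a type from less RNA per cell.

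**Figure D1:**
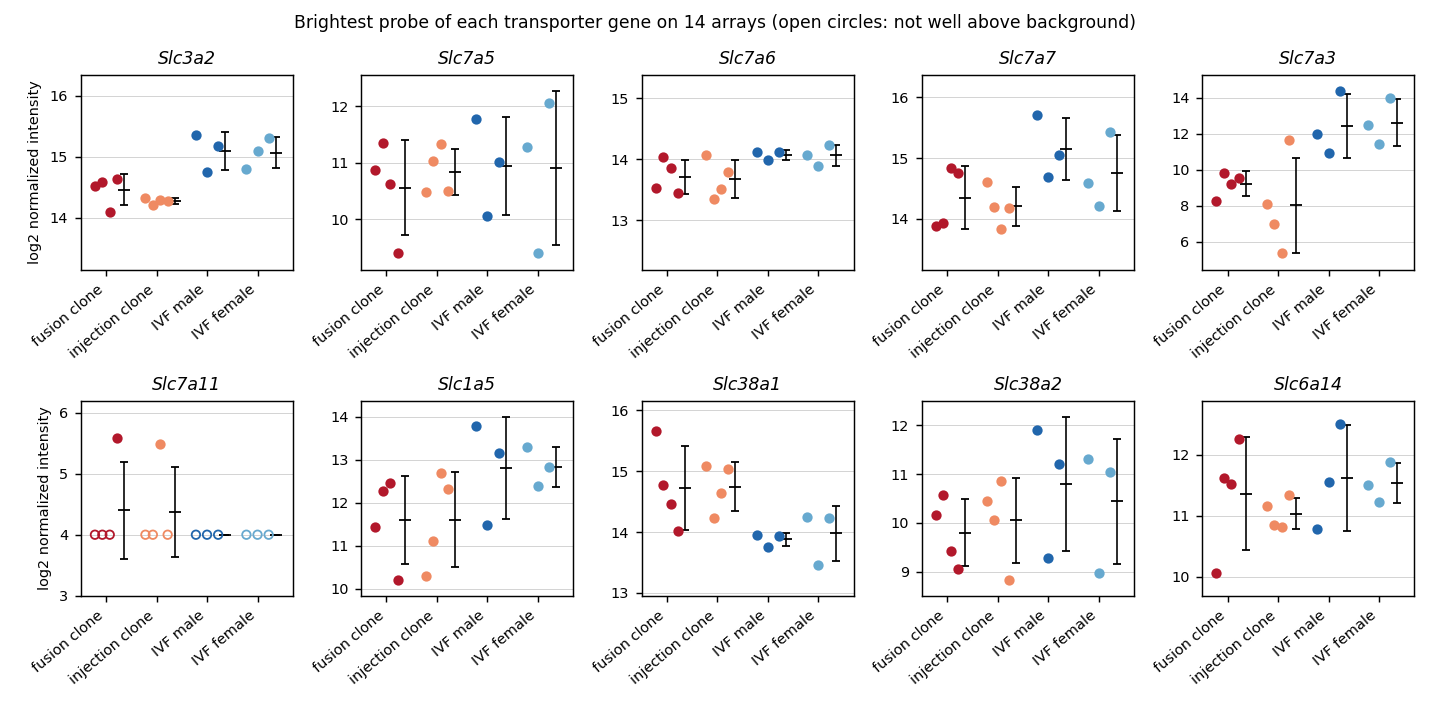
Log2 normalized intensity of the brightest probe of each of the 10 genes (vertical axis) in the 4 groups, 1 point per array, with the mean and SD of each group in black; open circles were not well above background. *Slc3a2* and *Slc7a3* lie lower in clones than in most or all IVF-derived embryos, *Slc38a1* tends to lie higher, and *Slc7a11* is at the floor on 12 arrays.

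*Slc3a2* encodes the heavy chain that the light chains need to reach the membrane. Its level was 14.52, 14.59, 14.09 and 14.64 in the 4 fusion clones and 14.33, 14.20, 14.29 and 14.27 in the 4 injection clones. It was 14.80, 15.09 and 15.31 in the female and 15.36, 14.74 and 15.18 in the male IVF-derived embryos. All 8 clones therefore lay below all 6 IVF-derived embryos, without overlap. Of the 10693 genes that could be measured on all arrays, 7.40% lay entirely lower in clones in the same way, so the separation was not unusual on this array.

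In size the *Slc3a2* difference was small. Fusion clones were lower than female embryos by a log2 difference of -0.61 (95% confidence interval -1.13 to -0.09), with an adjusted p of 0.133 from limma. Injection clones were lower by -0.79 (-1.17 to -0.41), with an adjusted p of 0.0524 from limma. That value lay on the edge of the threshold of 0.05. It passed in 3 of 18 alternatives, with a floor of 32 (0.0385), with a variance trend (0.0363) and with all 4 groups in 1 limma fit (0.0262), and over all 18 the adjusted p ran up to 0.209. A second, much dimmer probe of the gene (A_52_P245648), between 4 and 6.17 on all arrays, gave -0.13 and -0.31 with intervals that included 0.

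The genes whose profile over the 14 arrays lay nearest to that of *Slc3a2* were *Tbc1d20*, *Ssu72* and *Ppia*. Their root mean square distances from it, after each profile was centred, were 0.16, 0.17 and 0.17 on the log2 scale, against a median of 0.59 over 10684 other genes. None of the other transporters was that near, and the nearest, *Slc7a6*, lay at 0.33.

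*Slc7a5*, *Slc7a6* and *Slc7a7* encode light chains that pair with the *Slc3a2* product. The *Slc7a5* protein exchanges glutamine for leucine and other large neutral amino acids. Its level was 10.87, 11.36, 10.62 and 9.40 in fusion clones, 10.48, 11.04, 11.33 and 10.51 in injection clones and 11.27, 9.41 and 12.06 in female embryos. The female embryos alone spread over more than the whole range of the injection clones. The log2 differences from female embryos were -0.35 (-2.11 to 1.41) and -0.07 (-1.62 to 1.48), so that neither a rise nor a fall could be seen at this spread.

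The *Slc7a6* and *Slc7a7* proteins exchange cationic for neutral amino acids. *Slc7a7* stood at 13.88 to 14.84 in fusion clones, at 13.83 to 14.60 in injection clones and at 14.22 to 15.43 in female embryos. Its differences of -0.40 and -0.54 had intervals that included 0, and the groups overlapped. *Slc7a6* by its brightest probe stood at 13.44 to 14.03 in fusion clones, 13.34 to 14.06 in injection clones and 13.89 to 14.23 in female embryos. Its differences were -0.35 (-0.85 to 0.15) and -0.39 (-0.90 to 0.13), with adjusted p of 0.339 and 0.338 from limma.

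The other probes of *Slc7a6* ran the opposite way. A second probe of the same RefSeq transcript (A_52_P462071) differed by 0.44 (-0.10 to 0.97) in fusion and 0.24 (-0.28 to 0.75) in injection clones. Another probe, designed on another cDNA (AK037437), was dim, at 7.88, 8.54, 8.54 and 8.11 in fusion clones and 8.38, 7.62, 7.95 and 7.09 in injection clones. In female embryos it read 4, 6.33 and 6.48, below every clone, and the first of these was not well above background. Of all probes tested, 10.4% lay entirely higher in fusion and 8.39% in injection clones. This probe rose in fusion clones by 2.66 (1.15 to 4.17, adjusted p = 0.0488 from limma), where 4.32% of all probes tested were called higher. In injection clones its difference was 2.15 (0.51 to 3.80, adjusted p = 0.131). The direction for *Slc7a6* thus depended on the probe.

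*Slc7a11* encodes the light chain that takes up cystine in exchange for glutamate, the step that feeds glutathione synthesis. Its transcript was close to undetected. The brightest of its 4 probes was well above background on 2 of 14 arrays, at 5.59 in fusion clone 4 and at 5.49 in injection clone 3. The other 12 arrays were at the floor of 4. Of the other 3 probes, 1 was well above background on 2 arrays and 2 on none, and no fold is given for the gene.

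*Slc7a3* encodes a cationic transporter for arginine and lysine that works without a heavy chain, and lies on the X chromosome. It showed the widest spread of the 9 measured transporters, with an SD of 2.59 over the 14 arrays against a median of 0.51 over all measured genes. Its level was 8.24, 9.84, 9.21 and 9.54 in the fusion clones and 12.46, 11.40 and 13.97 in the female embryos, without overlap. The injection clones read 8.10, 6.98, 5.36 and 11.62, of which the last lay inside the range of the female embryos. The male embryos, at 11.95, 10.91 and 14.38, covered much the same range as the female ones.

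In fusion clones *Slc7a3* fell by 3.40 on the log2 scale (interval of the difference -5.01 to -1.80, adjusted p = 0.0314 from limma), a 10.6-fold lower level. In injection clones the difference was -4.59 (-8.29 to -0.90), with an adjusted p of 0.145 from limma. Without injection clone 4 it was -5.80, with an adjusted p of 0.0449, whereas leaving out any other sample gave -5.20 to -3.71 with adjusted p between 0.184 and 0.313. The fusion clone call was also thin. Leaving out any 1 of the 4 fusion clones, or female embryo 1 or 3, gave adjusted p between 0.0566 and 0.0785 and differences between -2.72 and -3.61, and only without female embryo 2 did it hold (-4.01, adjusted p = 0.0219).

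On the X chromosome as a whole, 7.51% of 599 genes were called lower in fusion clones, against 5.74% of 16080 autosomal genes. The other X-linked transporter, *Slc6a14*, encodes a carrier of neutral and cationic amino acids that is known for leucine uptake by the blastocyst. It read 10.06, 11.62, 11.52 and 12.26 in fusion clones, 11.16, 10.85, 10.81 and 11.34 in injection clones and 11.50, 11.23 and 11.89 in female embryos. The groups overlapped, and the differences were -0.18 (-1.42 to 1.07) and -0.50 (-1.04 to 0.04). Its second probe (A_51_P136188) gave -0.59 and -0.85, the latter with an interval of -1.61 to -0.09 and an adjusted p of 0.178 from limma.

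*Slc1a5* encodes a sodium-dependent exchanger of glutamine and other neutral amino acids. Its level was 11.44, 12.26, 12.46 and 10.21 in fusion clones and 10.29, 11.12, 12.68 and 12.32 in injection clones. The female embryos read 13.30, 12.38 and 12.82. In each clone group 3 of the 4 clones lay below the lowest female embryo, and the remaining clone lay inside the female range. The differences were alike in size, -1.24 (-2.63 to 0.16) and -1.23 (-2.75 to 0.30), and neither passed the test (adjusted p = 0.230 and 0.303 from limma).

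*Slc38a1* and *Slc38a2* encode sodium-coupled transporters of glutamine and alanine. *Slc38a1* was the only 1 of the 9 measured genes with a higher mean in both clone groups by its brightest probe. It read 15.65, 14.78, 14.45 and 14.02 in fusion clones, 15.08, 14.23, 14.63 and 15.03 in injection clones and 14.25, 13.45 and 14.23 in female embryos. The lowest clone of each group lay inside the female range. The differences were 0.75 (-0.28 to 1.78) and 0.77 (0.02 to 1.51), with adjusted p of 0.320 and 0.206 from limma.

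The 6 probes of *Slc38a1* did not share a direction. Against female embryos, 4 of them had a difference above 0 in both clone groups. A bright probe designed on another cDNA (A_51_P133005) gave -0.87 (-1.82 to 0.07) in fusion clones, where 1 flagged spot was left out, and -0.39 (-1.08 to 0.29) in injection clones. A dimmer probe of the same RefSeq transcript as the brightest (A_52_P232648) gave -0.58 and -0.24. None of the 6 probes was called in either comparison. The mean of the available probes of the gene differed from female embryos by -0.0026 in fusion clones. Fusion clone 1 lacked the flagged bright probe in that mean, so its mean was not over the same probes as the others.

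*Slc38a2* by its brightest probe read 10.15, 10.57, 9.42 and 9.06 in fusion clones, 10.44, 10.06, 10.87 and 8.84 in injection clones and 11.31, 8.98 and 11.04 in female embryos. The differences of -0.64 (-2.23 to 0.95) and -0.39 (-2.16 to 1.38) lay within the spread. A second probe of the same RefSeq transcript (A_51_P458384) was lower by more. It read 10.34, 9.80, 8.92 and 7.09 in fusion clones, 9.11, 9.55, 9.87 and 9.18 in injection clones and 12.00, 10.26 and 12.37 in female embryos. Injection clones lay below every female embryo on it, whereas fusion clone 1 overlapped them. The differences were -2.51 (-4.64 to -0.37, adjusted p = 0.132 from limma) and -2.12 (-3.41 to -0.82, adjusted p = 0.0824). The remaining 2 probes, both on another cDNA (AK164568), gave 0.05 and -0.14 in fusion and 1.38 and -0.87 in injection clones.

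**Figure D2:**
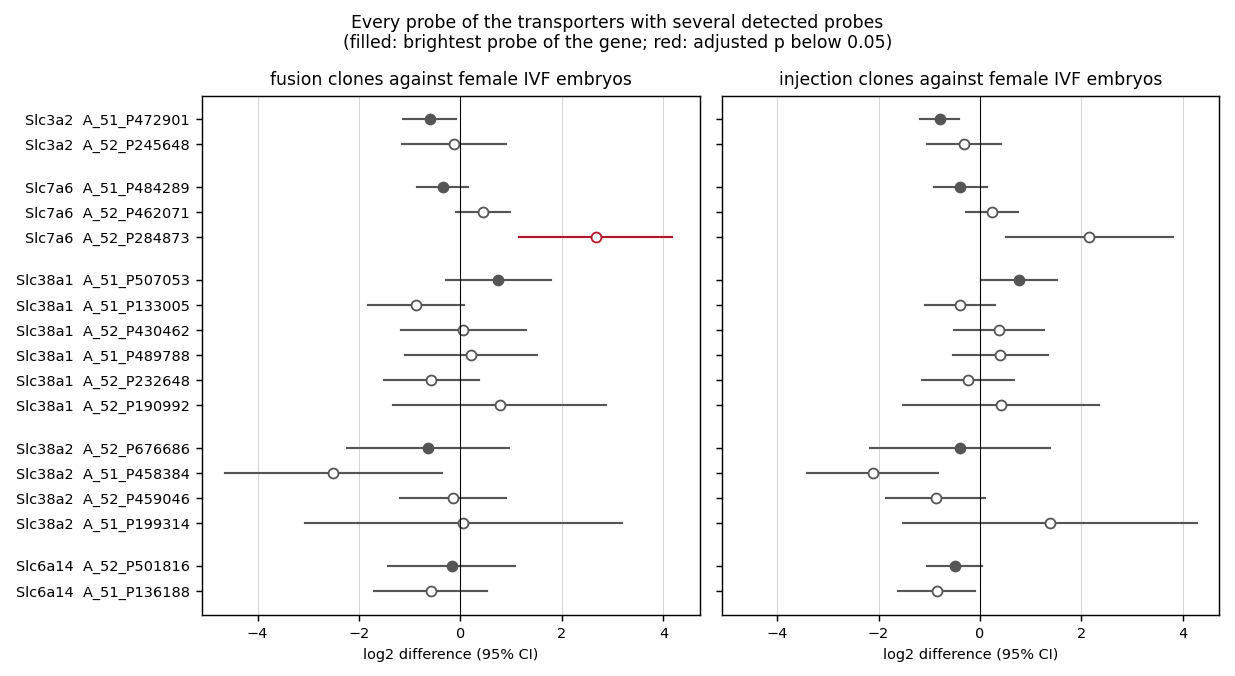
Log2 difference from female IVF-derived embryos (horizontal axis, dots with 95% confidence intervals) of every probe of the 5 genes that had several detected probes, for fusion clones (left) and injection clones (right). Probes of *Slc7a6*, *Slc38a1* and *Slc38a2* fall on both sides of 0, and 1 probe of *Slc7a6* was called higher in fusion clones.

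Counted by gene, 1 of the 10 transporters was called in fusion clones against female embryos, *Slc7a3*, which was lower. Across all 16687 genes tested, 5.81% were called lower and 2.51% higher, so the share among the transporters was near that of the array. *Slc7a3* was also the 1 gene past the threshold of the study's methods, an unadjusted p below 0.05 with a 2-fold difference. Of all genes, 9.66% passed it in the lower direction. That count rests on the brightest probe of each gene. Of 23 transporter probes tested, 2 passed lower, on *Slc7a3* and *Slc38a2* (A_51_P458384), and 1 higher, on *Slc7a6* (A_52_P284873). Of all probes, 8.59% passed lower and 8.46% higher. For *Slc3a2* and *Slc7a3* the 2 groups did not overlap, both with fusion clones lower, as was so for 18.7% of all genes.

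In injection clones against female embryos limma called 0 of the 10 transporters, where 2.54% of 16866 genes were called lower and 1.24% higher. At an unadjusted p below 0.05 there were 3, *Slc3a2* and *Slc7a3* lower and *Slc38a1* higher, beside 4123 of all genes. By brightest probe the threshold of the methods was passed by 1, *Slc7a3*, and by 8.14% of all genes in the lower direction. Of 22 transporter probes tested, the same *Slc38a2* probe (A_51_P458384) also passed lower and the same *Slc7a6* probe (A_52_P284873) higher. Of all probes, 7.08% passed lower and 6.93% higher. By brightest probe *Slc3a2* alone did not overlap between the groups, where 15.2% of all genes lay entirely lower.

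By their brightest probes, 8 of the 9 measured transporters had a difference below 0 in fusion and 8 in injection clones, both against the same controls. Counted by probe, 14 of 23 transporter probes tested lay below 0 in fusion and 14 of 22 in injection clones. That was near the 56.3% and 55.2% of all probes. The medians over the 9 genes were -0.40 and -0.50. With *Slc7a11* included the medians were -0.37 and -0.45, and they moved with the control arrays, to -0.63 and -0.80 without female embryo 2 and to -0.16 and -0.25 without female embryo 3. All genes tested, a set not limited to those measured on all arrays, also leaned downwards. Their medians were -0.22 and -0.17, with 62.5% and 60.8% of them below 0. The median over all probes moved with the scaling, from -0.12 after quantile normalization to 0.05 with the deposited log2 values for fusion clones. It went from -0.08 to 0.07 for injection clones. The 8 transporters stayed below 0 under each of the 3 other ways of scaling or background correction tried, and *Slc38a1* stayed above 0.

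**Figure D3:**
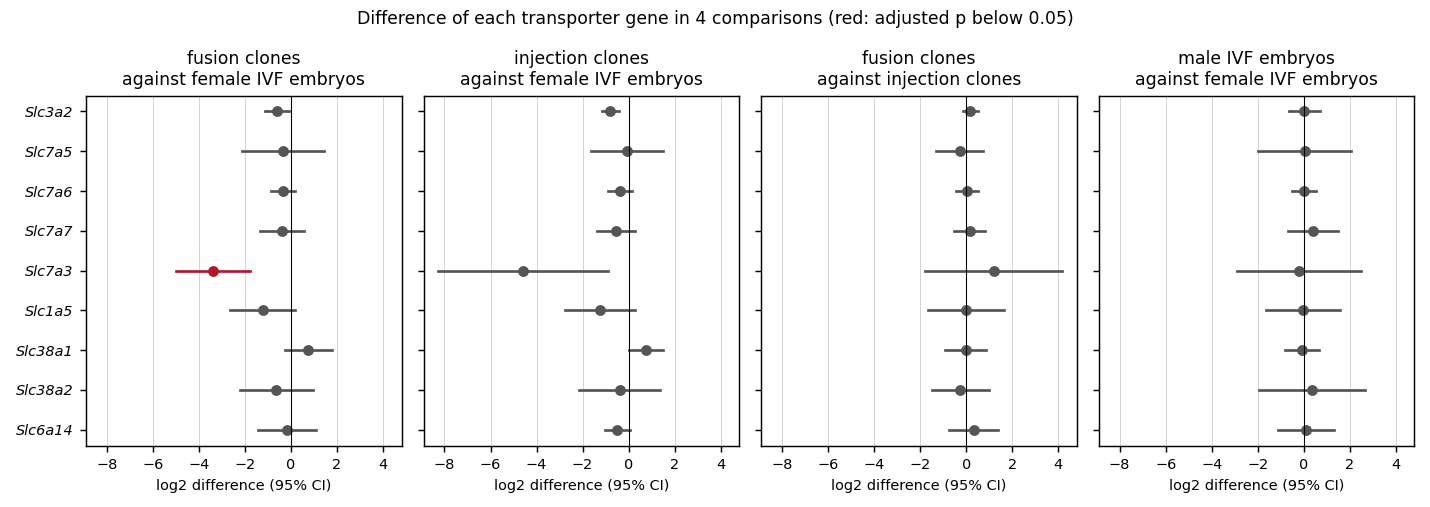
Log2 difference (horizontal axis, dots with 95% confidence intervals) of the 9 measured transporters in the 4 comparisons; red marks an adjusted p below 0.05. Intervals for *Slc3a2* and *Slc7a6* are narrow and those for *Slc7a3* wide, and *Slc7a3* in fusion clones is the 1 called difference.

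The routes of nuclear transfer were then compared with each other. Limma called 0 of the 10 transporters between fusion and injection clones, as it did for 0.0% of 16550 genes. At an unadjusted p below 0.05 there were also 0 transporters, beside 973 of all genes. The differences lay between -0.28 for *Slc7a5* and 1.19 for *Slc7a3*, and every transporter overlapped between the groups. The precision differed by gene. The interval was -0.14 to 0.51 for *Slc3a2* and -0.45 to 0.52 for *Slc7a6*, against -1.65 to 1.63 for *Slc1a5* and -1.79 to 4.18 for *Slc7a3*. For *Slc7a3* neither equal levels nor a difference of several fold lay outside the interval.

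Between male and female IVF-derived embryos 9 of the 10 genes were tested and limma called 0, against 0.0719% of 16697 genes. At an unadjusted p below 0.05 there were again 0, beside 1251 of all genes. The differences, male minus female, ran from -0.20 for *Slc7a3* to 0.40 for *Slc7a7*. The X-linked genes *Slc7a3* and *Slc6a14* differed by -0.20 (-2.90 to 2.50) and 0.08 (-1.14 to 1.30).

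Genes close to the transporters in function were counted in the same fits. Of 30 other amino acid transporters tested in fusion clones 1 was called higher and 1 lower, with a median of -0.49. Of 35 tested in injection clones 1 was called higher, with a median of -0.26. Of all genes, 2.51% were called higher and 5.81% lower in fusion clones, and 1.24% and 2.54% in injection clones. With 1 sample left out, each count of these transporters called was 0 or 1. *Slc36a3*, of the proton-coupled amino acid transporter family, rose in both by 2.14 ± 0.46 (SE) and 2.29 ± 0.34, with adjusted p of 0.0392 and 0.0324 from limma. *Slc6a15*, a transporter of branched-chain amino acids and proline, fell by 1.62 in fusion clones (adjusted p = 0.0279 from limma).

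The cationic transporters related to *Slc7a3* also had lower means in clones, without passing the test. *Slc7a1* differed by -1.02 and -0.88 (adjusted p = 0.163 and 0.285 from limma) and *Slc7a2* by -1.62 and -1.24 (0.231 and 0.350). The glycine transporter *Slc6a9* differed by -2.62 and -1.98, with adjusted p of 0.0552 and 0.133 from limma and no overlap with the female embryos. Of all genes, 18.7% and 15.2% lay entirely lower in these comparisons. *Slc38a4*, an imprinted relative of *Slc38a1* and *Slc38a2*, differed by 0.996 and 0.949, with adjusted p of 0.0566 and 0.186.

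On the sensing side, 45 genes of mTOR complex 1 and its amino acid sensors were tested. In fusion clones 5 were called lower and 0 higher (median -0.27), beside 5.81% of all genes lower. In injection clones 1 was called lower and 0 higher (median -0.12), beside 2.54% of all genes lower. Past the threshold of the methods there were 3 lower and 3 higher in fusion and 3 lower and 1 higher in injection clones. Of all genes, 9.66% and 8.14% passed it lower and 4.88% and 4.87% higher. The counts called were fragile. Leaving out any 1 of the 7 samples left 1 to 2 lower and 0 to 2 higher in fusion clones, and leaving out any sample but injection clone 4 left 0 lower in injection clones. *Rps6kb2*, an S6 kinase downstream of the complex, fell by 1.40 in fusion clones, and *Lamtor5*, a subunit of its lysosomal anchor, fell by 0.94. *Sesn3* (-0.92) and *Tsc2* (-0.80), which restrain mTOR complex 1, were also called lower there and were named after their values were seen. *Slc38a9*, the lysosomal arginine sensor, differed by 1.0006 and 1.104, with adjusted p of 0.155 and 0.0735 from limma.

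The genes of glutathione synthesis and use, the pathway that cystine uptake by the *Slc7a11* product feeds, leaned the other way. In fusion clones 3 of 12 were called higher and 0 lower (median 0.72), and in injection clones 1 higher and 0 lower (median 0.66), beside 2.51% and 1.24% of all genes higher. In fusion clones 2 were called higher without female embryo 2 and 0 when any other sample was left out, and in injection clones 1 was called without injection clone 4 and 0 without any other sample. *Ggt1*, which cleaves glutathione outside the cell, and *Keap1*, which holds back the transcription factor Nrf2, both rose by 1.22 in fusion clones. *Gsr*, glutathione reductase, rose by 0.93 there, and *Gss*, glutathione synthetase, rose by 1.05 in injection clones. Of 18 genes of the amino acid response, driven by Atf4 when amino acids are scarce, limma called 0 in fusion clones. In injection clones it called 1 lower, beside 2.54% of all genes. That was *Eif2ak4*, the kinase that senses uncharged transfer RNA (-1.52, adjusted p = 0.0428 from limma). The count was 0 when any sample but injection clone 4 was left out. The medians of this list were -0.61 and -0.83, and 0 genes of these 4 lists were called between the clone groups or between the sexes.

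**Figure D4:**
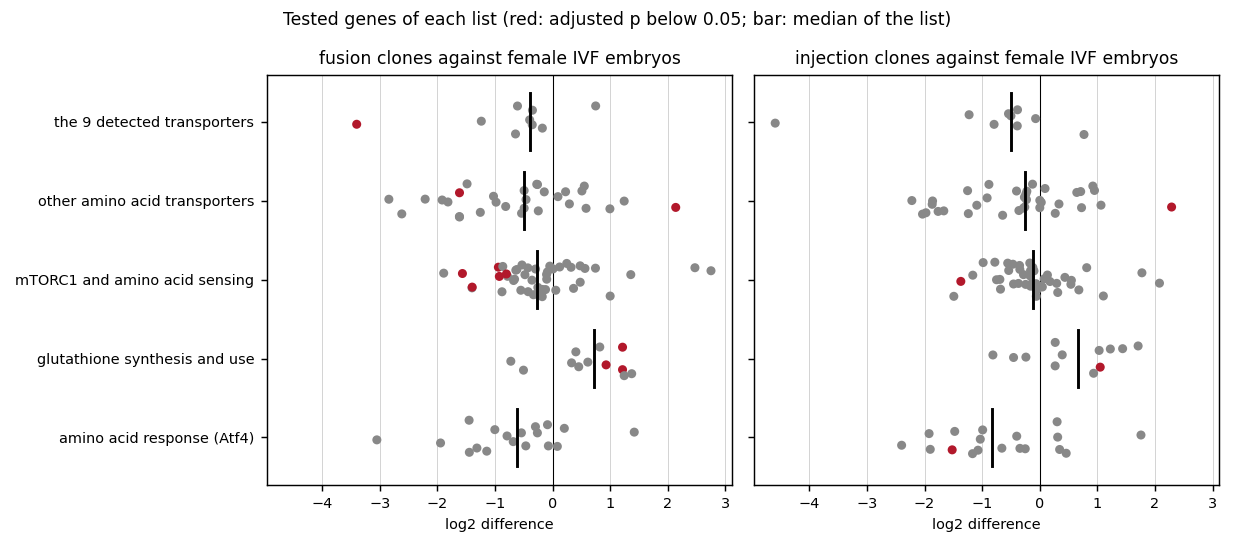
Log2 difference from female IVF-derived embryos (horizontal axis) of each tested gene in 5 lists, for fusion clones (left) and injection clones (right); red points had an adjusted p below 0.05 and black bars are list medians. The 9 measured transporters have medians of -0.40 and -0.50, and the glutathione list has the only medians above 0, at 0.72 and 0.66.

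Markers of the cell types of the blastocyst were read in the same samples. All 11 epiblast markers with a probe, and 17 of 18 trophectoderm markers, were well above background on all 14 arrays. The summed intensity of the trophectoderm markers ran from 967900 to 1393920 in clones and from 1408160 to 1600790 in IVF-derived embryos. By gene, 10 of 17 tested had a difference below 0 from female embryos in each clone group and 7 above 0. That of the primitive endoderm markers ran from 199465 to 392890 in clones and from 308079 to 601188 in IVF-derived embryos. In each clone group 1 trophectoderm marker was called lower, *Elf5* in fusion clones (-2.96) and *Id2* in injection clones (-1.12). Of 16 primitive endoderm markers, 15 had a difference below 0 in fusion and 16 in injection clones, with medians of -1.94 and -2.19. In each clone group 3 of the 16 primitive endoderm markers were called lower and 0 higher, beside 5.81% and 2.54% of all genes lower. With 1 sample left out, 1 to 3 were called in fusion and 1 to 2 in injection clones, and the counts of trophectoderm markers were 1 to 2 and 0 to 2. Of the primitive endoderm markers, *Foxa2* read the floor in all 8 clones, at least 146-fold lower in fusion clones than in female embryos. It was well above background on no fusion clone array, but on at least 1 injection clone array. *Sox7* (-6.39) and *Cubn* (-4.28) were lower in fusion and *Lama1* (-4.43) and *Lamb1* (-1.61) in injection clones. The epiblast markers summed to 101892 to 153141 in clones and 91388 to 111491 in IVF-derived embryos. By gene, 8 of 11 had a difference below 0 in each clone group and 3 above 0, with medians of -0.36 and -0.29. Called were *Bmp4*, lower in both clone groups (-3.16 and -3.23), and *Zfp42*, higher by 0.93 in injection clones. Of all genes, 5.81% and 2.54% were called lower, and 1.24% higher in injection clones. The *Bmp4* calls were each lost when 1 of several samples was left out, and the *Zfp42* call whichever sample was left out. Cumulus cell markers, those of the donor cell type, summed to 1327 to 2889 in clones and 1173 to 2703 in IVF-derived embryos, with 0 called and *Lhcgr* undetected. The part of these shifts in the transporter values was not tested.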

How the data were processed

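Scanner output of 14 Agilent 4×44K arrays was read, 1 array per sample, with groups and replicate numbers from the sample titles. The authors deposited processed intensities after background subtraction, not normalized between arrays, and, for the same 14 samples, a table holding log2 values (0 columns without a sample). Per the labels the scans were processed with Agilent Feature Extraction 10.5.1, while the file headers of the IVF arrays name 9.5.3.1. Probe names and genes were those of the files.

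Control spots (1639) were left out, flagged outlier spots (101 to 338 per array) were set to missing, and the remaining intensities of the 14 arrays were brought to a common distribution by quantile normalization. Values under 16 were raised to it before log2 conversion, and spots of a probe were averaged. The IVF arrays held 6790 to 9981 spots below 0, the clone arrays 0. A probe entered a pairwise test if 1 or more arrays of either group had it well above background. Tests were run with limma 3.58.1 (R 4.3.3), with Benjamini-Hochberg adjustment over all probes and a threshold of 0.05. Each gene took the brightest of its probes over the 14 arrays. The scripts (Python 3.11.15, matplotlib 3.10.9 for the plots) were tested on simulated data. Of 41174 gene probes 79.5% had a symbol in the RefSeq table of GRCm38.p6, which gave chromosomes and current names. The number of arrays limits the precision.

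The transporters, gene lists and tests were chosen with earlier results of these data known. Named from each other list were at most 3 rises and 3 falls called per comparison (*Sesn3* and *Tsc2* are beyond this), beside *Slc38a9*, *Slc7a1*, *Slc7a2*, *Slc6a9* and *Slc38a4*, and the 3 genes nearest in profile to *Slc3a2*. The values of 1 called gene are not reported here. Same-numbered male and female IVF samples deviated together weakly (r from 0.108 to 0.128 for each of the 3 numbers). The labels do not say that the numbers pair them. A block on the numbers left 0 transporters called between the sexes, as without it. Alternatives were other scalings, background corrections, floors, filters, fits and probe rules, and leaving out each sample.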

Additional observations from a re-analysis of the deposited data

Results flagged for a closer look

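*Slc7a11* read 5.59 in fusion clone 4 and 5.49 in injection clone 3, on the log2 scale, while the other 3 clones of each group were at the floor of 4. The other 3 values being equal at an imposed floor, any value above it takes up the whole range of the group and passes Dixon's limit, so the test says nothing here beyond detection on these 2 arrays. In the other 18 of 20 such groups of clones examined over the transporters, no sample passed it.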

How the results depend on the processing

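For fusion clones against female embryos the count of transporters called, 1 by the reported setting, was 0 without a filter on dim probes, 0 with all 4 groups in 1 fit, and 0 to 1 when each sample was left out. The count past the threshold of the methods, also 1, was 2 with the deposited log2 values and 1 to 2 with a sample left out (2 without fusion clone 3 or female embryo 2). For injection clones against female embryos the count called, 0, was 1 with a floor of 32, 2 with all 4 groups in 1 fit, 1 with a variance trend and 0 to 1 with a sample left out. The count past the threshold of the methods, 1, was 2 with the deposited log2 values and 0 to 2 with a sample left out (0 without injection clone 2, female embryo 1 or female embryo 3, and 2 without injection clone 3). Between the clone groups the latter count, 0, ran from 0 to 1 (1 without injection clone 4). The median difference over the transporters tested moved with 1 sample left out, from -0.63 to -0.16 in fusion clones (reported -0.37), -0.80 to -0.25 in injection clones (-0.45), -0.0876 to 0.13 between the clone groups (0.0299) and -0.26 to 0.49 between the sexes (0.0276), so that the last 2 have no settled sign. The counts between the sexes were the same under all alternatives run. Which property of a setting moved a count was not tested.

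With the replicate number as a block, where numbers do not show a pairing (r below 0.1 for at least 1 number in each clone comparison), 0 transporters were called in fusion clones against female embryos, with *Slc7a3* at -3.51 (adjusted p = 0.168). In this fit *Slc7a5* was at 0.0393 in fusion clones and 0.0377 in injection clones, and *Slc38a2* at 0.0136 in injection clones. With the block, no other count of transporters called changed.

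Several uncalled differences changed sign. In fusion clones, averaging the probes of a gene gave 0.92 for *Slc7a6* and -0.0026 for *Slc38a1*, where fusion clone 1 lacked a flagged bright probe. The same averaging gave 0.67 for *Slc7a6* in injection clones and -0.0325 for *Slc6a14* in males. Normexp background gave 0.0580 for *Slc1a5* and -0.0096 for *Slc7a6* between the clone groups and -0.0232 for *Slc7a5* in males. For *Slc7a6* between the clone groups, 75th percentile scaling gave -0.0094 and the deposited log2 values -0.0043. With a sample left out, *Slc7a5* ran from -1.10 to 0.22 and *Slc6a14* from -0.47 to 0.26 in fusion clones. *Slc7a5* ran from -0.83 to 0.50 and *Slc38a2* from -1.12 to 0.0450 in injection clones. Between the clone groups the ranges were -0.45 to 0.45 for *Slc1a5*, -0.33 to 0.22 for *Slc38a1*, -0.66 to 0.0203 for *Slc38a2*, -0.54 to 0.11 for *Slc7a5*, -0.0761 to 0.16 for *Slc7a6* and -0.0168 to 0.30 for *Slc7a7*. In males against females they were -0.51 to 0.63 for *Slc1a5*, -0.36 to 0.0375 for *Slc38a1*, -0.38 to 1.12 for *Slc38a2*, -0.11 to 0.20 for *Slc3a2*, -0.37 to 0.50 for *Slc6a14*, -1.18 to 0.55 for *Slc7a3*, -0.71 to 0.61 for *Slc7a5* and -0.0806 to 0.0892 for *Slc7a6*. Signal near background limits *Slc7a11* and the dim probes of *Slc3a2*, *Slc7a6*, *Slc38a1* and *Slc38a2*.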

Other observations

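Within the IVF-derived embryos the transporters were low together in the same-numbered sample of each sex. The labels do not say whether the numbers pair male with female samples, so these cannot be taken as independent observations. Male embryo 2 had the lowest value of its group for 8 of the 9 measured transporters, all but *Slc6a14*. Female embryo 2 had the lowest value for 8 of 9 as well, all but *Slc3a2*. Over all 10693 genes measured on all arrays, these samples were lowest for 28.4% and 32.7%. *Slc38a2* was 9.27 in male embryo 2 against 11.91 and 11.21 in the other males, and 8.98 in female embryo 2 against 11.31 and 11.04 in the other females. *Slc7a5* showed the same order, with 10.05 against 11.78 and 11.02 in males and 9.41 against 11.27 and 12.06 in females. In the fusion clones, clone 4 was lowest for 5 of 9, and in the injection clones no clone for more than 3. This pattern was seen in the values and not tested.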
